A study of Mus musculus with 14 samples.

Results

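The 7 tumors described here came from mammary glands of mice of the MMTV-neu model, whose neu transgene is expressed in mammary epithelium from a mouse mammary tumor virus promoter. They are all the tumor samples of the series, 7 of its 14 samples. They were set against each other, without gland tissue, to find which transcripts varied between tumors, which varied together, and how much of this followed the 2 labelled differences between them. Set B held tumors 80 and 81, a later group meant to check whether changes in the original tumors recur. The first group held tumors 22, 24, 26, 50 and 52. Each tumor RNA was hybridised to 1 array of 12488 probe sets, and the arrays came from 3 manufacturing lots. Lot 2006609 held set B, lot 2004097 held tumors 50 and 52, and lot 2001815 held tumors 22, 24 and 26. Set B and its lot therefore cannot be told apart. The labels give no age, strain, size or site for the tumors and do not say whether any of them share an animal, so the p-values cover only the spread between these samples. Transcript levels of the transgene's receptor were not analysed here.

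The neu oncogene encodes a receptor tyrosine kinase of the ErbB family, and tumors driven by it in this model are built largely of luminal epithelium, the cell layer that makes milk in lactation. A tumor is also a mixture in which epithelium is joined by fibroblasts, vessels and immune cells, and it can carry remnants of fat and muscle from its surroundings. Many genes of milk secretion, of the interferon response and of the daily clock can be switched over a wide range by hormones, cytokines or time of day. In bulk RNA, fewer cells of a type and less RNA per cell cannot be told apart.

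Epithelial transcripts were present in all 7 tumors. No gland was compared, so their levels do not test the tumor label. Krt8, a keratin of simple epithelium, had an intensity of 11569 to 21702, and its partner Krt18 had 16069 to 42223. The epithelial adhesion molecule gene Epcam lay between 9776 and 15181. Cdh1, which encodes E-cadherin, was 1368 and 1467 in set B, 1516 and 2095 in lot 2004097, and 2437 to 2918 in lot 2001815. These Cdh1 values did not overlap between the 3 lots, but Cdh1 did not pass the test between lots (limma, adjusted p = 0.226). The share of all genes without overlap between the 3 lots was not counted. Array medians ran from 544 to 708, a log2 difference of 0.38, at 2% trimmed means of 1501 on every array. Between 15.8% (tumor 24) and 23.8% (tumor 80) of the probe sets lay under the floor of 93.7, below which intensities were set to the floor.

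Most transcripts differed little between tumors. Among the 8221 probe sets that passed the filter on dim signals, the median standard deviation (SD) over the 7 tumors was 0.40 on the log2 scale, with quartiles of 0.28 and 0.58. An SD of at least 1, taken here as high variation, was reached by 480 probe sets (5.84%), which held 30.9% of the summed variance. They stood for 289 of 6138 genes (4.71%) when the brightest probe set of each gene was used. At the threshold, Sema5b and Tyk2 lay just inside and Ltb and Nr1d2 just outside. Of the 480 probe sets, 204 had at least 1 tumor at the floor, so their SD is a lower bound. At the other end, 689 probe sets (8.38%) had an SD under 0.2. Eif3l, which encodes a subunit of a translation initiation factor, was the steadiest of the bright genes. Its intensity ran from 10188 to 11570, with an SD of 0.06. Lrrc59, which encodes a membrane protein of the endoplasmic reticulum, ran from 6389 to 7469.

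**Figure D1:**
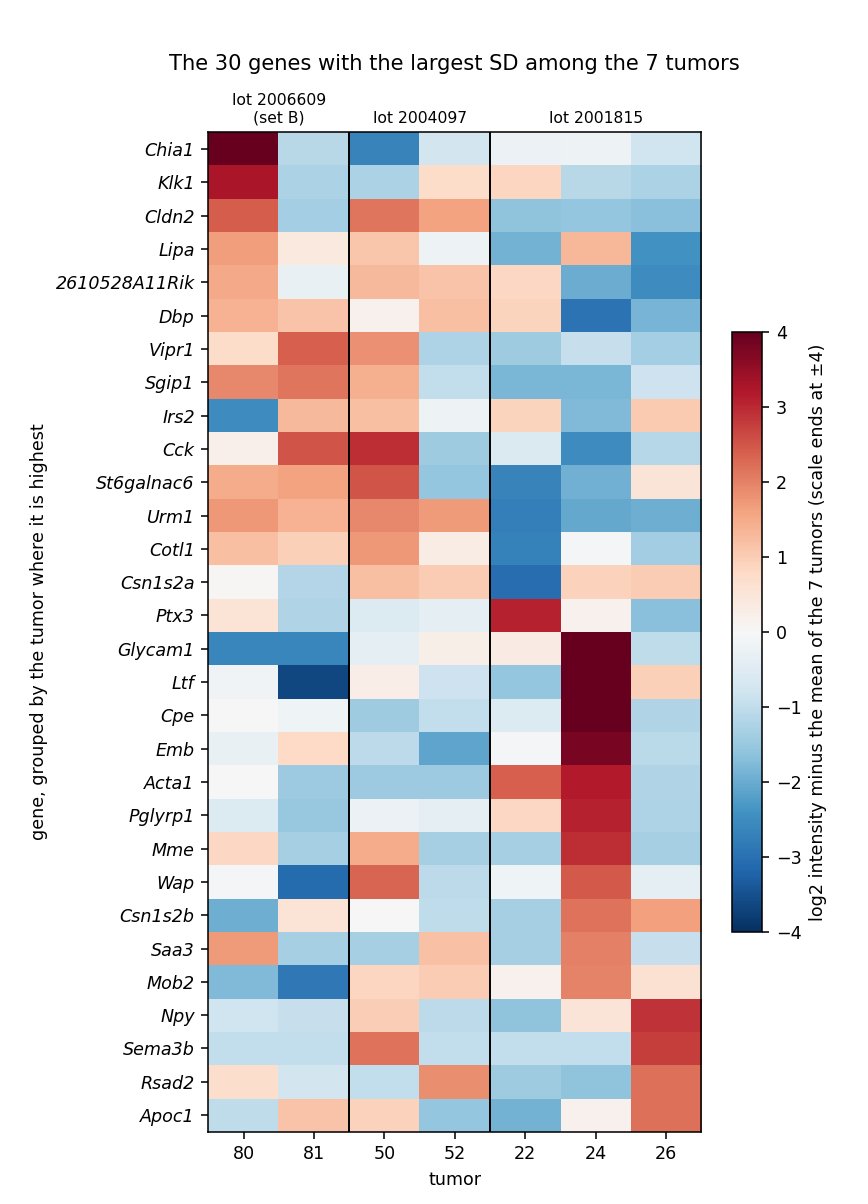
Each row is 1 of the 30 genes with the largest SD among the 7 tumors and each column 1 tumor; color gives the log2 intensity minus the gene's mean over the 7 tumors, and black lines separate the array lots. Most of these genes are high in 1 or a few tumors, with the darkest cells in tumor 24 (Glycam1, Ltf, Cpe) and tumor 80 (Chia1); of the genes shown, Urm1 follows lot 2001815 most closely, with 98.4% of its variance between lots.

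Several of the most variable genes were highest in tumor 24. Glycam1, which encodes a mucin-like glycoprotein of milk and of lymph node vessels, had the largest SD of all named genes, at 2.95. It was at the floor in set B tumors 80 and 81, at 434 in tumor 50 and 668 in tumor 52, at 725 in tumor 22 and 281 in tumor 26, and at 39383 in tumor 24. Ltf encodes the iron-binding milk and neutrophil protein lactoferrin. It reached 55792 in tumor 24 and 142 to 3413 in the 6 others. Cpe, which encodes a carboxypeptidase that trims prohormones, was 16177 in tumor 24 and 299 to 791 in the others. A second probe set of Cpe followed the same course (r = 0.99 over the 7 tumors).

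Other genes stood out in the same tumor. Emb, which encodes the cell surface protein embigin, was 9661 in tumor 24 against 158 to 1206 elsewhere. Gpx2, which encodes a glutathione peroxidase of epithelia, was 13638 against 701 to 1429. Pglyrp1, which encodes a bacterial peptidoglycan-binding protein, was 9190 against 387 to 1964. Among the 500 most variable genes, those with the course most like Glycam1 over the 7 tumors were Myo7a (r = 0.971), Fndc1 (0.968), Krt36 (0.950), Gpx2 (0.946) and Ndrg4 (0.943). Over the 6 tumors other than 24, the correlations were 0.94 for Fndc1, 0.82 for Myo7a and 0.60 to 0.67 for the 3 others, in an alternative added after the values were seen. Mme, a peptidase gene of myoepithelial and stromal cells, was 1825 in tumor 24, 650 in tumor 50 and 420 in tumor 80. It was at the floor in the 4 others.

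Stromal and basal transcripts were also highest in tumor 24. Over all genes, 24.1% had their highest value there. Of 30 measured genes of fibroblasts and fibrillar matrix, 23 did, and their mean lay 0.75 above the mean of the 7 tumors, with the other tumors between -0.26 and 0.06. Tnc, which encodes the matrix glycoprotein tenascin C, was 2061 in tumor 24 against 199 to 540. Vcan, which encodes the proteoglycan versican, was 2013 against 112 to 910. The collagen and proteoglycan genes Col1a1, Postn and Lum reached 12585, 9032 and 2537 in tumor 24. Their next highest values were 10892 and 3944 in tumor 50 and 2159 in tumor 80, so Col1a1 and Lum were only slightly above the next tumor. The other probe set of Col1a1 followed it only in part (r = 0.52 over the 7 tumors).

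Of 9 measured genes of basal and myoepithelial cells, 8 were highest in tumor 24 (24.1% of all genes were). Igfbp2 was 2320 there against 587 to 1005. The ninth, Mylk, was highest in tumor 81. The defining basal keratin genes Krt5 and Krt14 did not pass the filter. All 3 measured mast cell genes were highest in tumor 24, among them the chymase gene Cma1 with 818 against 122 to 471. Tumor 24 also had the fewest values under the floor and the highest array median. The part of either in these counts was not tested; with the arrays centred on their medians, 23 matrix and 7 basal genes were still highest in it.

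Single highly variable genes were lowest in tumor 24. Egf, which encodes epidermal growth factor, was 171 in tumor 24 against 784 to 2382. Scrg1, a gene first found as responsive to scrapie, was 1137 against 4309 to 10842. Lalba, which encodes the lactose synthase subunit alpha-lactalbumin, was 3712 in tumor 24, 39724 and 19375 in set B, 75247 and 29296 in lot 2004097, and 21190 and 18660 in the other tumors of lot 2001815. Tumor 24 thus had the lowest Lalba and the highest Glycam1 and Ltf, although all are milk genes. Of the 18 measured genes of milk proteins and secretion, 2 were lowest in tumor 24 (18.3% of all genes were). Highest there were 7, beside 24.1% of all genes.

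These 18 genes varied more than most, with a median SD of 0.88 beside 0.38 over all genes, and 8 had an SD of at least 1. They did not move as 1 group. Csn2, which encodes beta-casein, was 13193 and 23765 in set B, 51605 and 33708 in lot 2004097, and 5083 (tumor 22), 58170 (24) and 50891 (26) in lot 2001815. Csn1s2a, another casein gene, was 4322 in tumor 22, 36670 and 15814 in set B, and 68071 to 81189 in the 4 other tumors. Btn1a1, which encodes the milk fat globule protein butyrophilin, was also lowest in tumor 22, at 1238 against 4253 to 21928. Tumor 22 was the lowest of the 7 for all 3, and tumor 50 the highest for Csn1s2a and Btn1a1.

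Wap, which encodes whey acidic protein, followed yet another course. It was 6896 in tumor 24 and 6352 in tumor 50, 149 in tumor 81, and 600 to 1180 in the 4 others. Csn1s1 and Csn3, the alpha- and kappa-casein genes, were highest in tumor 52, at 204436 and 180753. Their next values were 118243 in tumor 26 and 90516 in tumor 50. Under quantile normalization the SD of Csn3 was 0.22 instead of 0.68, so its spread depends on how the brightest signals are scaled. Xdh, which encodes the xanthine dehydrogenase of the milk fat globule, was 10320 in tumor 81, 10249 in tumor 50 and 2071 to 5173 in the 5 others.

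**Figure D2:**
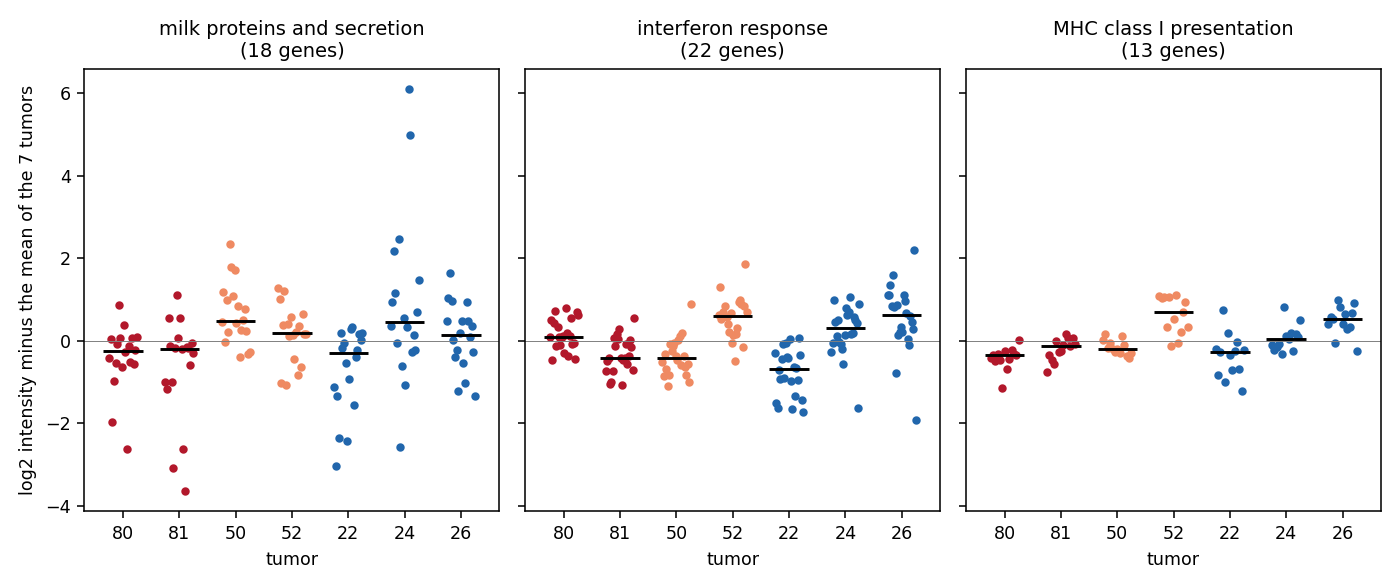
Each point is the log2 intensity of 1 gene in 1 tumor minus that gene's mean over the 7 tumors, for the milk, interferon response and MHC class I genes; black bars are medians over the genes, and colors mark lots 2006609 (red), 2004097 (orange) and 2001815 (blue). The milk genes scatter widely within each tumor, while most interferon and MHC class I genes lie above 0 in tumors 52 and 26.

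Genes of the interferon response and of MHC class I presentation were high in the same 2 tumors, 52 and 26, which come from different lots. In 4.43% of all genes both of these tumors lay above the 5 others. This held for 8 of 22 measured interferon response genes and for 9 of 13 genes of class I presentation. Under quantile normalization the counts were 7 and 7. Rsad2, which encodes the antiviral enzyme viperin, was 464 and 175 in set B, 145 and 1048 in tumors 50 and 52, and 107, 93.7 and 1324 in tumors 22, 24 and 26. Isg15 encodes a ubiquitin-like protein induced by interferon. It was 4405 and 1579 in set B, 2037 and 5280 in tumors 50 and 52, and 2010, 4481 and 5880 in tumors 22, 24 and 26. Ifit1, which encodes a protein that binds viral RNA, was 1892 and 1073 in set B, 1236 and 2722 in tumors 50 and 52, and 1454, 1459 and 3826 in tumors 22, 24 and 26.

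The promoters of these 3 genes carry the core of the interferon-stimulated response element, the site bound by interferon-activated factors. They are shown because the genes share their 2 highest tumors. The 250 bases before each start site are from RefSeq (GRCm38.p6), written 5′ to 3′ on the strand of the gene. Capitals mark each match to a pair of GAAA copies with any 2 bases between them on either strand, which reads as a pair of TTTC copies where it lies on the other strand. In Isg15, 3 matches overlap in 1 run of capitals.
Rsad2, chr12:26456453-26456702, minus strand: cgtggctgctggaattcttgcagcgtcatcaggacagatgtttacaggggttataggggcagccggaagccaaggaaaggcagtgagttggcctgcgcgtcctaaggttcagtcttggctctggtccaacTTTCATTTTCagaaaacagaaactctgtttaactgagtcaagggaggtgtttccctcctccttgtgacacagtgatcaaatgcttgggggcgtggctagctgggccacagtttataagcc
Isg15, chr4:156200819-156201068, minus strand: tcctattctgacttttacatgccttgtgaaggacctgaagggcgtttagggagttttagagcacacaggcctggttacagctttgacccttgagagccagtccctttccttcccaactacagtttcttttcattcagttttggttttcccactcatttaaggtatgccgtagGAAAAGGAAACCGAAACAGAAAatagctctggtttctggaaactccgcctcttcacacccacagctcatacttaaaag
Ifit1, chr19:34640639-34640888, plus strand: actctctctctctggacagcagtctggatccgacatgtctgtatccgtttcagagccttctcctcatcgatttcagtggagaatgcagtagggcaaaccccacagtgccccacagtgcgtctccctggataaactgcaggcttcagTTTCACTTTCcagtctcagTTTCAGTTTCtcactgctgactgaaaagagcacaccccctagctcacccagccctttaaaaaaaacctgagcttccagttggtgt

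Of the 22 interferon response genes, 17 had a promoter in the RefSeq table, and 9 of these (52.9%) held a match within 250 bases of a start site. Over all 27025 genes with a promoter the share was 3.46%. Of 11 class I presentation genes with a promoter, only B2m held one. A match describes these letters and is not a measured site of binding.

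The other interferon response genes with the largest SD were Isg20 and Usp18. Usp18, which encodes a protease that removes the Isg15 protein from its targets, was 4312 in tumor 26, 2336 in tumor 80 and 2159 in tumor 52. It was 668 to 1557 in the 4 others, so tumor 80 shared its high level. Isg20, which encodes an exonuclease that degrades viral RNA, took a different course. It was 110 in tumor 22 and 96.1 in tumor 26, against 534 to 676 elsewhere. Tumor 22 was lowest for 9 of the 22 genes (10.7% of all genes were lowest there), among them Ifit3, with 262 against 586 to 2055.

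Among the class I genes, B2m encodes the light chain of every class I molecule. It was 116208 in tumor 52, 73318 in tumor 26 and 32644 to 55846 in the 5 others. The heavy chain genes H2-K1 and H2-D1 were 139121 and 132499 in tumor 52, and 95521 and 97401 in tumor 26. The 5 other tumors had 47683 to 59773 for H2-K1 and 36495 to 72421 for H2-D1. Heavy chain genes are near-identical copies, and their probe sets may share signal. The lowest correlation with another probe set of the same gene was 0.45 for H2-K1 and 0.55 for H2-D1. Tap1, which encodes a subunit of the peptide transporter, was 7961 in tumor 52, 5763 in tumor 26 and 2249 to 3777 in the others. The immunoproteasome subunit gene Psmb9 was 7881 in tumor 52, 7799 in tumor 26 and 1796 to 4434 in the others. Of the 13 class I genes, 8 were highest in tumor 52 (16.7% of all genes were), but 4 under quantile normalization. The SD of B2m was then 0.27 in place of 0.60 and that of H2-K1 0.32 in place of 0.57, so the spread of these bright genes also depends on the scaling. Without tumor 52 their SDs were 0.40 and 0.37.

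Tumor 80 of set B stood apart for a different group. Chia1, which encodes an acidic chitinase of salivary gland, stomach and lung, was 31380 in tumor 80 and 93.7 to 521 in the 6 others. Its SD of 2.66 was the next largest after that of Glycam1 among named genes. Its course was most like that of Klk1 (r = 0.868), Klk1b1 (0.834), Saa2 (0.776), A2m (0.737) and Cebpd (0.691). Without tumor 80 these correlations were 0.44 (Klk1), 0.05 (Klk1b1), -0.35 (Saa2), 0.29 (A2m) and -0.44 (Cebpd), so the likeness rests on that tumor. Klk1, a kallikrein gene of salivary gland, was 2140 in tumor 80, 405 in tumor 22, 375 in tumor 52 and 93.7 to 104 in the others. Klk1b1, from the same family, was 2991 in tumor 80 against 233 to 708. The probe sets of both kallikreins may match related transcripts. Of 6 measured genes of the salivary gland list, 3 were highest in tumor 80 (12.0% of all genes were), all of them kallikreins. In tumor 24, 5 were lowest (18.3% of all genes were).

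Some acute phase genes were high in tumor 80, but their list was not highest there. Of 12 measured acute phase and complement genes, 2 were highest in tumor 80 (12.0% of all genes were) and 4 in tumor 24 (24.1%). The list mean lay 0.51 above the mean of the 7 tumors in tumor 80 and 0.74 above it in tumor 24. Cebpd and A2m are not on that list. Cebpd, which encodes a transcription factor of the acute phase response, was 12727 in tumor 80 against 1668 to 5512. A2m, which encodes the protease inhibitor alpha-2-macroglobulin, was 5372 in tumor 80, 3785 in tumor 22 and 817 to 1622 elsewhere. For the acute phase gene Saa2, the brighter of 2 probe sets gave 2699 in tumor 80 and 308 to 745 in the others, but the second did not follow it (r = 0.17). Its relative Saa3 was 774 in tumor 80, 948 in tumor 24 and 536 in tumor 52. It was at most 124 in the 4 others.

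Of 18 macrophage genes, 8 were highest in tumor 80 (12.0% of all genes were) and 6 in tumor 24 (24.1%). Mmp12, which encodes macrophage elastase, was 6189 and 783 in set B tumors 80 and 81, 2233 and 1628 in tumors 50 and 52, and 769, 4322 and 365 in tumors 22, 24 and 26. The chemokine gene Ccl9 was 3748 in tumor 80, 1848 in tumor 24 and 134 to 922 elsewhere. Ccl8, another chemokine gene, was 4962 in tumor 24 and 609 to 1975 elsewhere. All 3 measured red blood cell genes were highest in tumor 80. Hbb-b2, a beta-globin gene, was 17823 there against 2985 to 8524, and Hba-a1, an alpha-globin gene, was 33666 against 12005 to 24777. How much blood or gland tissue each sample held was not tested.

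**Figure D3:**
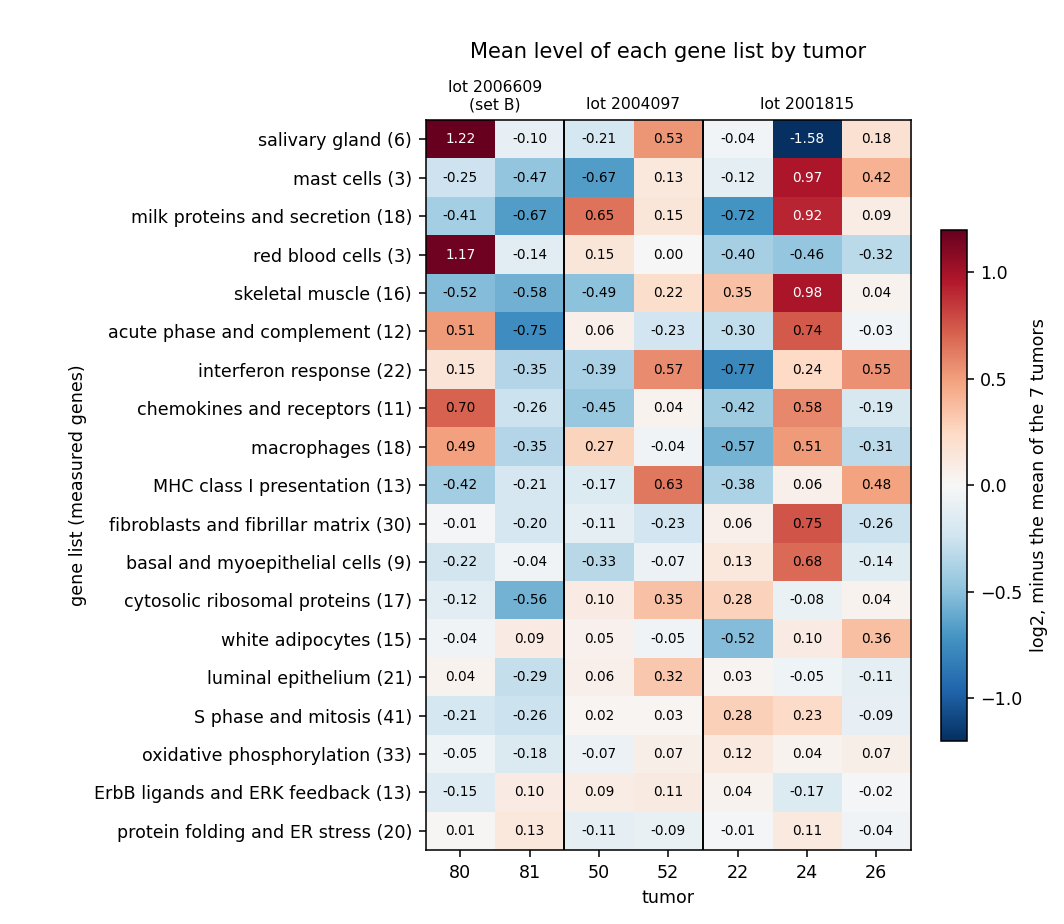
Rows are 19 gene lists with their number of measured genes and columns are the 7 tumors; each cell gives the mean log2 level of the list minus its mean over the 7 tumors. Tumor 24 is highest for matrix (0.75) and basal genes (0.68), tumor 80 for red blood cell (1.17) and salivary gland genes (1.22), and tumors 52 and 26 for interferon response genes (0.57 and 0.55).

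Several genes were shared by tumors 80, 81 and 50, a grouping that crosses set and lot. When each probe set was divided at its largest gap, 46 of the 480 highly variable ones (9.58%) placed these 3 tumors on one side, beside 4.96% of all probe sets, and 35 of the 46 were higher in them. Cck, which encodes the peptide hormone cholecystokinin, was 617 and 3030 in set B, 4094 in tumor 50 and 93.7 to 359 in the 4 others. St6galnac6, a sialyltransferase gene, was 2179 and 2364 in set B and 4374 in tumor 50. It was 264 in tumor 52 and 120, 206 and 1100 in tumors 22, 24 and 26. Vipr1, which encodes a receptor for vasoactive intestinal peptide, was 559 and 1763 in set B and 1208 in tumor 50, against 124 to 178 in the others. Cck ran most closely with Strap (r = 0.951) and Tgfbr1 (0.949) over the 7 tumors. Tgfbr1, which encodes a receptor for transforming growth factor beta, was 246 and 483 in set B and 528 in tumor 50. It was at the floor in the 4 others and passed the filter only through tumors above the floor. Its SD of 1.17 became 1.81 with the floor at the 10th percentile and 0.65 at the 30th. Its spread thus depends on the floor, and its correlation with Cck includes the floored values.

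Further highly variable genes divided the tumors in still other ways. Cldn2, which encodes a pore-forming claudin of leaky epithelia, was 1592 and 116 in set B, 1312 and 898 in tumors 50 and 52, and 93.7 to 101 in lot 2001815. It was thus low in 1 set B tumor as well as in the whole of lot 2001815. Irs2, which encodes an adaptor of insulin signalling, was 134 in tumor 80, 227 in tumor 24 and 664 to 1897 in the others. Csn1s2b, a casein gene, was 5108 in tumor 24, 3527 in tumor 26 and 292 to 1646 in the others. The claudin gene Cldn4 followed the lots, with 6844 and 6158 in set B, 4790 and 3789 in lot 2004097, and 1688 to 2759 in lot 2001815. Scd2, a fatty acid desaturase gene, was 8361 and 23664 in set B, 7812 and 9327 in lot 2004097, and 30033 to 33025 in lot 2001815. Neither Cldn4 nor Scd2 passed the test between lots.

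One tumor stood apart from the 6 others in 156 of the 480 probe sets (32.5%), a smaller share than among all probe sets (50.7%). Tumor 24 stood alone in 51 of the 480 (10.6%), 22 high and 29 low, beside 13.7% of all probe sets. Tumor 22 did so in 33 (6.88%), of which 31 were low, beside 5.77% of all. Ptx3, which encodes the soluble pattern receptor pentraxin 3, was 3732 in tumor 22 against 138 to 638. In tumor 26, Npy, which encodes neuropeptide Y, was 32813 against 1463 to 8884, and Apoc1, a lipoprotein gene, was 37516 against 2244 to 18079. Sema3b, which encodes a secreted guidance protein, was 1272 in tumor 26 and 843 in tumor 50, and at the floor in the 5 others. Tumor 81 led for Ly6d, a surface protein gene of keratinocytes and lymphoid precursors, with 3435 against 138 to 613. It also led for Chad, which encodes the cartilage matrix protein chondroadherin, with 10049 against 1206 to 2872.

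Fat and muscle genes varied in their own ways. Of 15 white adipocyte genes, 6 were highest in tumor 26 (11.6% of all genes were) and 7 were lowest in tumor 22 (10.7%). Cd36, a fatty acid transporter gene, was 913 in tumor 26 and at the floor in tumor 22. Of 16 skeletal muscle genes, 9 were highest in tumor 24 (24.1% of all genes were). In all, 6 were lowest in tumor 80, 5 in tumor 81 and 4 in tumor 50, where 18.3%, 13.8% and 12.9% of all genes were lowest. Under quantile normalization these counts were 6, 3 and 4. Acta1, which encodes skeletal muscle actin, was 2296 in tumor 24, 1339 in tumor 22, 255 in tumor 80 and 93.7 to 112 in the others. Myl1, a myosin light chain gene, was 1639 in tumor 24 and 93.7 to 525 elsewhere, and the calcium pump gene Atp2a1 was 1273 in tumor 24 and 682 in tumor 52.

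Dbp, an output gene of the daily clock, had an SD of 1.72 and was the only one of the clock genes named here among the 30 most variable. It was 1881 and 1596 in set B, 811 and 1661 in tumors 50 and 52, and 1328, 93.7 and 196 in tumors 22, 24 and 26. Arntl, which encodes the clock activator that drives Dbp, was 1502 in tumor 24 and 1570 in tumor 26, against 550 to 940 in the 5 others. The repressor gene Nr1d1 was 945 in tumor 24, 851 in tumor 26 and 989 to 2738 elsewhere, and Clock was highest in the same pair, at 1506 and 1151, against 668 to 889. Per2 did not share this division, with 1595 in tumor 81 and 847 in tumor 26, against 215 to 461. The SD was 0.60 for Arntl, 0.59 for Nr1d1 and 0.43 for Clock, beside the median of 0.38 over all genes. Arntl, Nr1d1, Clock and Per2 were chosen after the values of Dbp were seen, and the time of day at which tumors were taken is not in the labels.

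The means of some lists differed little between tumors. The mean of 33 oxidative phosphorylation genes had a range of 0.30 over the 7 tumors. This range was 0.24 for 20 genes of protein folding and ER stress and 0.28 for 13 genes of ErbB ligands and ERK feedback. The median SD of their members was 0.23, 0.33 and 0.35, beside 0.38 over all genes. In the last 2 lists the median correlation between members was -0.01 and 0.02. Their flat means therefore do not show that each member was steady. Among 41 genes of S phase and mitosis the range was 0.54, and no member had an SD of at least 1. Set B was lowest for 28 of the 41, beside 32.1% of all genes, and tumors 22 and 24 together were highest for 31, beside 37.2%. The ribosomal protein list varied more, with a range of 0.91 over the 7 tumors. Of its 17 genes, 15 were lowest in tumor 81 (13.8% of all genes were) and 11 highest in tumor 52 (16.7%), but only for 7 and 3 under quantile normalization, where their mean in tumor 52 was -0.05 in place of 0.35.

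The tumors were next compared by array lot. Lots held 47.4% of the summed variance of the 8221 probe sets, beside the 33.3% that is their share of the degrees of freedom. Of the 105 ways to divide the 7 tumors into groups of these sizes, 4 gave as large a share (exact permutation test, one-sided, p = 0.0381; adjusted over 3 tests p = 0.0571). Between pairs of tumors, the median absolute log2 difference averaged 0.43 for the 16 pairs of different lots and 0.35 for the 5 pairs of the same lot. This difference of 0.08 had the same exact permutation p-values, 0.0381 and 0.0571. Set B against the first tumors held 24.4% of the summed variance, beside 16.7% of the degrees of freedom (exact permutation test, one-sided, p = 0.143, where the smallest possible is 0.0476). None of the 3 tests passed 0.05 after adjustment.

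The closest pairs did not always share a lot. Tumors 81 and 50 were nearest of all (0.30), followed by 22 and 26 of lot 2001815 (0.31) and by 80 and 50 (0.31). The 2 set B tumors differed by 0.32. Tumors 50 and 52, from the same lot, differed by 0.39, and 80 and 24 were farthest apart, at 0.56. On the first principal component, with 39.1% of the variance, stood tumors 80, 81 and 50 at 29.0 to 31.9, tumor 52 at -5.0, and lot 2001815 at -45.6 to -15.9. The second, with 17.4%, ran from tumor 52 at -39.1 to tumor 24 at 23.4.

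**Figure D4:**
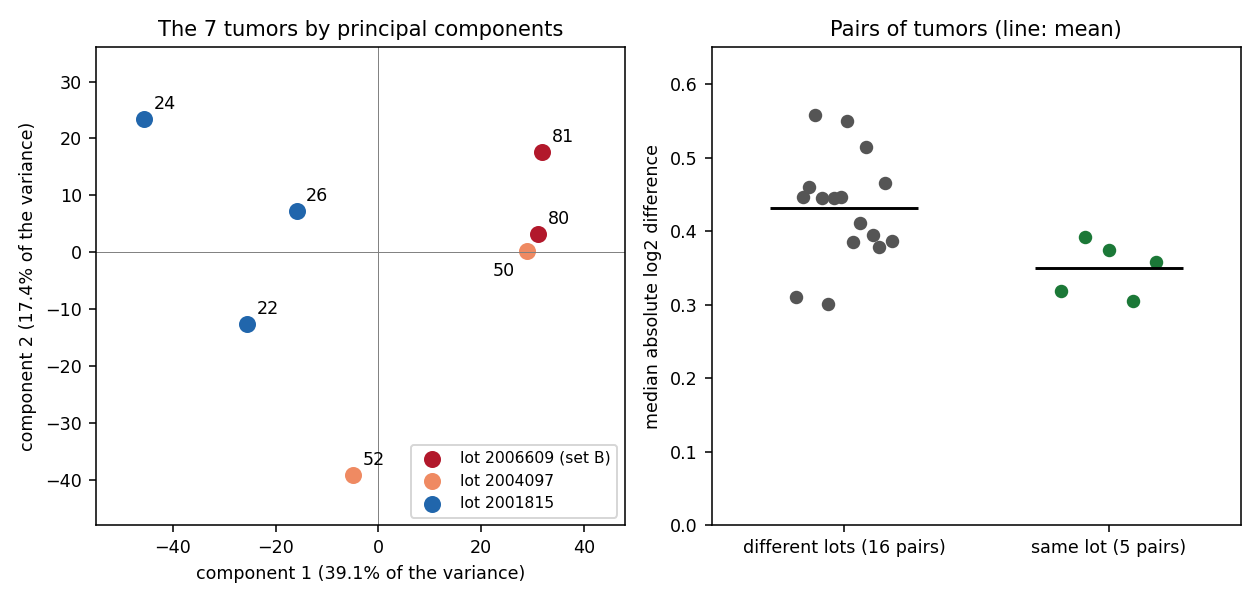
Left, the 7 tumors on the first and second principal components of the log2 intensities of 8221 probe sets, colored by lot; right, the median absolute log2 difference of each pair of tumors, with lines at the means of 0.43 (different lots) and 0.35 (same lot). Tumor 50 lies beside set B and away from tumor 52 of its own lot.

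The lots also differed in some control measures of RNA and hybridisation. The 3′ to 5′ log2 ratio of the actin control probe sets was 0.21 and 0.14 in set B, 0.08 and 0.62 in lot 2004097, and 0.40 to 0.76 in lot 2001815. The 3′ probe set for 18S ribosomal RNA read 646 and 393 in set B, 861 and 1038 in lot 2004097, and 1999 to 4551 in lot 2001815. The spiked control BioB read 799 and 783 in set B, 1482 and 1636 in lot 2004097, and 1180 to 1679 in lot 2001815. Another, CreX, read 40626 and 29026 in set B, 71933 and 98726 in lot 2004097, and 61167 to 68072 in lot 2001815. Both were thus lower in set B than in every first tumor. Tumors 50 and 52 shared a lot but not the actin ratio. The same ratio for the Gapdh controls was -0.28 and -0.50 in set B, -0.25 and 0.05 in lot 2004097, and -0.16 to 0.43 in lot 2001815. It overlapped between lots 2004097 and 2001815. The part of these measures in the differences between lots or sets was not tested.

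Few single probe sets passed the test between lots. In limma, 6 probe sets differed between any of the 3 lots at an adjusted p under 0.05 (0.073% of those tested), and 1370 had an unadjusted p under 0.05. Between lot 2004097 and lot 2001815, 5 passed (0.0608%), 4 of them higher in lot 2004097 (0.0487%) and 1 lower (0.0122%). The median difference over all probe sets was -0.07. Without tumor 50 no probe set passed either test, and without tumor 52 none passed that of lot 2004097 over lot 2001815. Urm1, which encodes a ubiquitin-like protein of tRNA modification, was 2410 and 2092 in lot 2004097 and 97.0, 154 and 164 in lot 2001815. Set B had 2118 and 1662, also above lot 2001815. The log2 difference of 2004097 over 2001815 was 4.06 ± 0.34 (SE; limma, adjusted p = 0.00224).

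For 3 of the called genes, other probe sets of the same gene did not share the difference. Anp32a encodes a nuclear phosphoprotein of chromatin. Its called probe set was 3481 and 3225 in lot 2004097 and 466, 300 and 375 in lot 2001815, while its other probe set was 2098 and 2230 in lot 2004097 and 2093 to 2303 in lot 2001815. The called probe set of Thrap3, a splicing factor gene, was 1994 and 1035 in lot 2004097 and 190 to 209 in lot 2001815. Its other probe set read 7367 and 6625 in lot 2004097 and 3449 to 7276 in lot 2001815. For Actn1, which encodes an actin cross-linking protein, the called probe set was 1243 and 812 in lot 2004097 and 93.7 to 125 in lot 2001815. Its brightest probe set was 4767 and 6486 in lot 2004097 and 3843 to 5367 in lot 2001815. The other uncalled one differed the other way, with 1311 and 1255 in lot 2004097 and 1349 to 2181 in lot 2001815, and set B had 2043 and 2073. The values of all uncalled probe sets but this one overlapped between these lots for all 3 genes.

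Actb, which encodes cytoskeletal beta-actin and is used on the array as a control, was the gene lower in lot 2004097. It was 1311 and 881 in lot 2004097 and 11316, 5749 and 7493 in lot 2001815, a log2 difference of -2.87 ± 0.32 (SE; limma, adjusted p = 0.0200). Set B had 2976 and 2170. A second probe set of Actb also separated these lots, with 1681 and 1308 in lot 2004097 and 2614 to 5359 in lot 2001815. Nr1d2, a clock repressor gene, passed only the test over all 3 lots (limma, adjusted p = 0.0328). It was 5006 and 5707 in set B, 3469 and 3186 in lot 2004097, and 1065 to 1590 in lot 2001815.

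**Figure D5:**
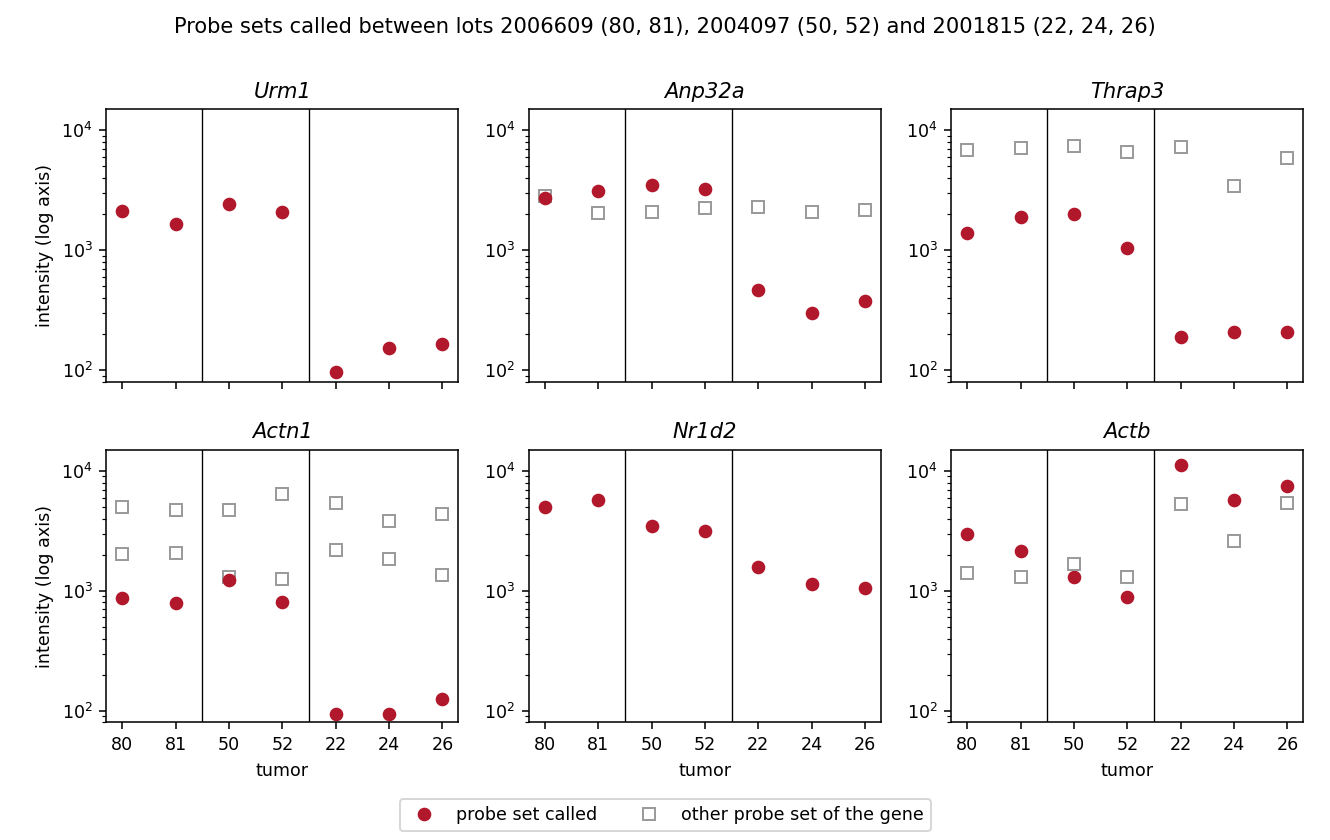
Intensity (log axis) in each of the 7 tumors for the 6 genes called between lots; filled red circles are the called probe set, open gray squares other tested probe sets of the same gene, and vertical lines separate lots 2006609, 2004097 and 2001815. The other probe sets of Anp32a, Thrap3 and Actn1 do not share the low values of the called ones in lot 2001815, whereas that of Actb is higher in tumors 22, 24 and 26.

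No probe set passed the test between set B and the first tumors. In limma, 0 of 8221 reached an adjusted p under 0.05 (0.0%), and 962 had an unadjusted p under 0.05. The median difference was -0.05. Without tumor 80, or without tumor 26, 1 probe set passed. The smallest adjusted p (0.258) was that of Mob2, which encodes a protein that binds NDR kinases. It was 202 and 93.7 in set B and 780 to 2728 in the first tumors. Next came Xist, the RNA of the inactive X chromosome, with 2167 and 2447 in set B and 5000 to 11200 in the first tumors. Pa2g4, which encodes a growth regulator that binds ErbB receptors, was 1896 and 1803 in set B and 686 to 887 in the first tumors. None of these values overlapped between the groups, but the genes were picked for their small p and none passed the adjustment. The share of all probe sets without such overlap was not counted. The same applies to 1 probe set each of Ddx6 and Eif4ebp2, both lower in set B. The brightest probe set of Eif4ebp2 did not share the difference. That of Ddx6 went the other way, with 5448 and 3521 in set B against 1923 to 3464 in the first tumors. The last of the 3 probe sets of Ddx6 was lower in set B, with 498 and 637 against 674 to 2672.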

How the data were processed

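RNA of 7 MMTV-neu mammary tumors was measured on 1-color oligonucleotide arrays. The authors deposited 1 linear intensity per probe set and array. The sources used here do not say how scanner images became intensities. The 2% trimmed mean of the deposited intensities was 1501 on every tumor array, so they were taken as scaled by the authors and not normalized again. The 66 control probe sets were left out. Values under the 20th percentile of the 7 arrays pooled (93.7) were set to it, log2 was taken, and a probe set was kept if 2 or more arrays had it above their own 40th percentile. This left 8221 of 12488, with 0.919% of values at the floor. The platform annotation gave 10855 probe sets 1 gene, 396 several and 1237 none; current symbols were set for 10839 by gene number (GRCm38.p6). For each gene the probe set with the highest mean stood for it. A gene whose lowest value was shared by several tumors at the floor counted as lowest in none.

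Lots and sets were compared in limma 3.58.1 under R 4.3.3 (lmFit, eBayes with an intensity trend; two-sided p, Benjamini-Hochberg adjustment over all probe sets tested, threshold 0.05), with 4 residual degrees of freedom for lots and 5 for sets. Errors are standard errors. On simulated data with 8221 probe sets changes of 2-fold and 4-fold between lots 2004097 and 2001815 were called in 23% and 83% of cases, with 7 false calls, and those between set B and the first tumors in 29% and 82%, with 8. For any difference between the 3 lots the shares were 16% and 74%, with 9. The simulated spread was that within lots, with no difference between the lots of the first tumors. The test of set B holds that difference in its spread, so its shares may be too high for these data. Shares of variance and distances were tested by exact permutation over tumors. The number of arrays limits the precision.

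Members and gene lists were chosen with earlier results of these data known. Genes to name were the 30 with the largest SD, the 3 largest of each list, those most like the 5 most variable, the called genes or smallest p of each test, the 6 largest SD within lots, the 5 steadiest bright genes and Krt8, Krt18, Epcam and Cdh1; not all are named. Others, such as Csn2, Lalba, Isg15, Ifit1, B2m, Tap1, Col1a1, Postn and Lum, were added after their values were seen. Alternatives were quantile normalization, median centring, other floors and filters, no intensity trend, the spread of all 14 arrays, lot as a random block, and leaving out each tumor. Correlations without tumor 24 or 80 were added after the values were seen.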

Additional observations from a re-analysis of the deposited data

Results flagged for a closer look

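In 16 of 107 items (88 genes and 19 gene lists named here), 1 tumor lay so far from the 6 others that the gap to its neighbor, as a share of the whole log2 range, exceeded Dixon's 95% critical value for 7 samples. Chance flags about 1 in 20 groups, and most of these genes were chosen for their spread, so the number is a description only. Tumor 24 accounted for 11 of them. It was highest for Cpe and Gpx2 (0.76 each), Ndrg4 (0.71), Glycam1 and Krt36 (0.66 each), Myo7a and Igfbp2 (0.61 each) and Tnc (0.57), and for the mean of the fibroblast and matrix genes (0.69). It was lowest for Scrg1 (0.59) and Egf (0.58). Tumor 80 was highest for Chia1 (0.70), Saa2 (0.59) and the mean of the red blood cell genes (0.63), and for Eif3l (0.57), whose whole range is only 1.14-fold. Tumor 81 was highest for Chad (0.59). No item set tumor 50, 52, 22 or 26 apart by this criterion.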

How the results depend on the processing

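Quantile normalization, median centring and both other floors left the counts of probe sets called within 1.5 times. The calls between any lots, 6 as reported, were 2 with the filter on all 7 arrays, 3 with no intensity trend and 1 with the spread from all 14 arrays. Those of lot 2004097 over lot 2001815, 5 as reported, were 9 with no filter, 1 with the filter on all 7 arrays, 3 with no intensity trend and 9 with the spread from all 14 arrays. Those of set B over the first tumors, 0 as reported, were 1 with no filter and 2 with no intensity trend. The count with an SD of at least 1, 480 as reported, was 241 with the floor at the 30th percentile and 55 with the filter on all 7 arrays, which leaves out probe sets dim in any tumor. Leaving out 1 tumor at a time gave 0 to 6 calls between any lots, 0 to 4 for lot 2004097 over lot 2001815, 0 to 1 for set B, and 426 to 508 probe sets with an SD of at least 1. The share of variance between lots was then 49.7% to 55.8%, that of set B 22.2% to 35.7%, and the difference in distance 0.06 to 0.11. Lots and sets hold a larger share of the degrees of freedom with 6 tumors than with 7, so these shares of variance do not compare directly. With 6 tumors left these permutation tests have few placements, and their p-values say nothing about stability. Without tumor 24 the SD of Glycam1 was 1.37 in place of 2.95, and without tumor 80 that of Chia1 was 0.88 in place of 2.66. The range of the matrix list was 0.32 without tumor 24, in place of 1.01. In all, 39 of 1181 recomputed gene SDs changed by over 1.5 times and 16 of 266 list ranges moved by over 1 SD. Without tumor 80 the correlations of Saa2 and Cebpd with Chia1 turned to -0.35 and -0.44. The causes were not tested. No paired analysis was possible because set B and the first tumors share no replicate numbers. The number of arrays and signals near the floor limit what small changes can be seen.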

Other observations

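Probe sets of the same gene often disagreed. For 2341 probe sets whose gene had another one tested, the median correlation with the mean of the others over the 7 tumors was 0.28. Among the 158 of these with an SD of at least 1 it was 0.42, and 42 of them (26.6%) had a negative correlation. Among the 44 that also placed lot 2001815 on one side of the 4 other tumors, 17 (38.6%) reached 0.7 and 13 (29.5%) were negative. Among the 17 that placed tumor 24 over 2-fold beyond the 6 others, 9 (52.9%) reached 0.7 and 4 (23.5%) were negative. Correlations of probe sets share the same 7 arrays and are given as a description.

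Glands next to tumors were hybridised on lot 2001815 (2 arrays) and on lot 2004907 (2 arrays), which the labels give as a number other than the tumors' lot 2004097. In 240 probe sets the 3 tumors of lot 2001815 all lay above the 4 other tumors, with group means at least 2-fold apart. In 192 of these the 2 glands of lot 2001815 also lay above the 2 of lot 2004907, beside 30.2% of all probe sets. In 148 probe sets the tumors of lot 2001815 all lay below the others, with group means at least 2-fold apart. In 69 of these (46.6%) the glands of that lot were below too, beside 18.9% of all. Actb was 10702 and 12806 in the glands of lot 2001815 and 689 and 1591 in those of lot 2004907, and Urm1 was 205 and 106 in the glands of lot 2001815 and 931 and 1988 in those of lot 2004907. Ate1, which was low in the tumors of lot 2001815, overlapped between the glands, with 93.7 and 217 in lot 2001815 and 93.7 and 291 in lot 2004907. The labels do not say whether these glands and tumors share animals, so lot and animal cannot be told apart.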
